A study of Mus musculus with 6 samples.

Results

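The genes described here are 45 genes of DNA replication: the factors that license origins, the helicase and its activators, the polymerases and primase, the sliding clamp and its loader, single-strand binding and fork-protection proteins, enzymes of strand joining and nucleotide supply, chromatin assembly factors, and 3 regulators of S-phase entry. They were taken by symbol from the 40808 gene IDs of a count table, and 45 of 45 symbols were found. All 45 passed the filter on low counts. RNA came from leukaemia cells of the spleen of mice that had received a bone marrow transplant, per the labels' protocols, and was sequenced from the 3′ end of each mRNA. There were 3 libraries labelled as without Dox (replicates 4, 5 and 6) and 3 labelled as with Dox (replicates 10, 11 and 12), all from transplanted mice. Dox is given here as the labels write it. Its dose and duration, what it acts on, and the strain, age and sex of the mice are not given in the sources used here, nor is whether each library came from a separate mouse, so p-values measure the spread between these libraries. The study's title concerns NOTCH and its ubiquitination through UVRAG, ITCH and ESCRT, and the labels do not say what Dox was given for.

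A chromosome is copied once per cell cycle. Before S phase the origin recognition complex, with Cdc6 and Cdt1, loads the ring of Mcm2 to Mcm7 on DNA, and geminin (Gmnn) binds Cdt1 so that no origin is loaded again. The kinase Cdc7, with Cdc45, the GINS complex and Mcm10, turns the ring into a moving helicase, primase with polymerase alpha starts each strand, and the clamp Pcna, placed by replication factor C, holds the other polymerases on DNA. Many of these genes are targets of E2F transcription factors, are high in cycling leukaemia cells and cycling erythroid and lymphoid precursors, and are low in resting lymphocytes.

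Because many of the members are known as E2F targets, the 250 bases before their annotated starts were searched on both strands for 4 forms of the E2F consensus, TTTCCCGC or TTTCGCGC or TTTGCCGC or TTTGGCGC, which can overlap one another. RefSeq promoters (GRCm38.p6) were present for 35 members, with 41 promoters in all; Gmnn, Mcm4, Gins1, Gins2, Gins4, Prim2, Pole, Rfc2, Tipin and Ccne2 had no entry. A form was present in 8 of the 41 promoters (19.5%), against 1.86% of all 32851 promoters in the same table. With the 50 bases after the start included, Cdt1, Mcm3, Pold1, Pole2 and Lig1 also held a form, and the shares were 31.7% (13 of 41) and 2.26%. The 8 windows are shown because they belong to members that differ in their response: Orc1, Mcm5, Mcm6 and Rfc3 fell with Dox, while Cdc6, Mcm7, Gins3 and Pola1 did not pass the test. Each is given on the gene's strand, with the matched letters in capitals, and those that touch an annotated exon are cut to at most 30 bases. The windows of Orc1, Cdc6, Mcm7 and Pola1 lie within the gene's own RefSeq span, before a start that is not its outermost.
Orc1, chr4:108579416-108579445, plus strand: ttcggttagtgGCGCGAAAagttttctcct
Mcm5, chr8:75109334-75109393, plus strand: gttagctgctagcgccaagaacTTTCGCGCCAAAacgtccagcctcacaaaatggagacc
Mcm6, chr1:128359719-128359778, minus strand: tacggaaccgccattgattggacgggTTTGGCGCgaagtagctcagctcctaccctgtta
Rfc3, chr5:151651209-151651229, minus strand: acgtcgcacgcTTTCGCGCtc
Cdc6, chr11:98907987-98908046, plus strand: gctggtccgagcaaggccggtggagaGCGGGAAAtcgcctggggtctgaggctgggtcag
Mcm7, chr5:138172030-138172059, minus strand: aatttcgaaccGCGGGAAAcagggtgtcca
Gins3, chr8:95633507-95633536, plus strand: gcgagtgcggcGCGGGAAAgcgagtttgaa
Pola1, chrX:93632260-93632319, minus strand: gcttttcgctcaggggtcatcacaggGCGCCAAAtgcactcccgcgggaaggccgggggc

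In the Mcm5 window, 2 forms on opposite strands overlap. The Mcm6 promoter held 3 matches, of which the one nearest the start, ending 40 bases before it, is shown. CCAAT, the letters bound by the factor NF-Y, was present in 23 of 41 member promoters (56.1%) and in 33.8% of all promoters. The E-box letters CACGTG, bound by Myc and related factors, were present in 5 of 41 (12.2%) and in 6.02% of all promoters; the 5 genes were Pola2, Rfc1, Rpa1, Fen1 and Chaf1a. Chaf1a is shown as the member that rose, with its E-box, and Pcna as a member with a large fall, with the CCAAT letters as their reverse complement.
Chaf1a, chr17:56040291-56040348, plus strand: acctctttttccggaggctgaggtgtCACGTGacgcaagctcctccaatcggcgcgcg
Pcna, chr2:132253252-132253278, minus strand: ccacgggtacgATTGGtccttgaggag

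Total counts were 5541486 to 7729988 per library without Dox and 6498193 to 8725767 with Dox. The limit set by 3 counts was thus 0.344 to 0.541 CPM before TMM scaling, for counting error only. Levels are given as CPM, a count relative to its library after TMM scaling. The libraries of the groups stand apart in other ways. Y-linked genes had 545 to 801 counts without Dox and 0 in each library with Dox, while Xist had 193 to 324 counts without Dox and 3347 to 5669 with Dox, so that Dox and sex-linked expression cannot be told apart. Haemoglobin genes took 8.61% to 9.04% of counts without Dox and 14.1% to 15.9% with Dox. No pair of libraries was within counting noise of each other (chi-square per degree of freedom of at least 6.85). Libraries with Dox were also less alike: the coefficient of variation of a member between replicates had a median of 11.5% without Dox and 22.1% with Dox, and it was larger with Dox for 38 of the 45 members.

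Most replication genes that passed the test were lower with Dox, and in several complexes only some of the subunits passed. Of the 45 members, 25 fell and 1 rose (edgeR quasi-likelihood test, Benjamini-Hochberg adjusted p under 0.05), and 19 did not pass. Among all 14110 genes tested, 22.1% were lower and 23.6% higher by the same rule, against 55.6% and 2.22% of the members. The median log2 fold change of the members was -0.83, where that of all tested genes was 0.07. In bulk RNA, fewer cells of a cycling type and less RNA per cell cannot be told apart. Summed over the 45 members, normalized CPM were 5461, 5842 and 6264 without Dox, against 3603, 3723 and 3651 with Dox, so each Dox library was below all others. The members' levels did not overlap between groups for 26 members on the lower side and 3 on the higher side, where 29.6% and 30.0% of all tested genes did so.

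**Figure D1:**
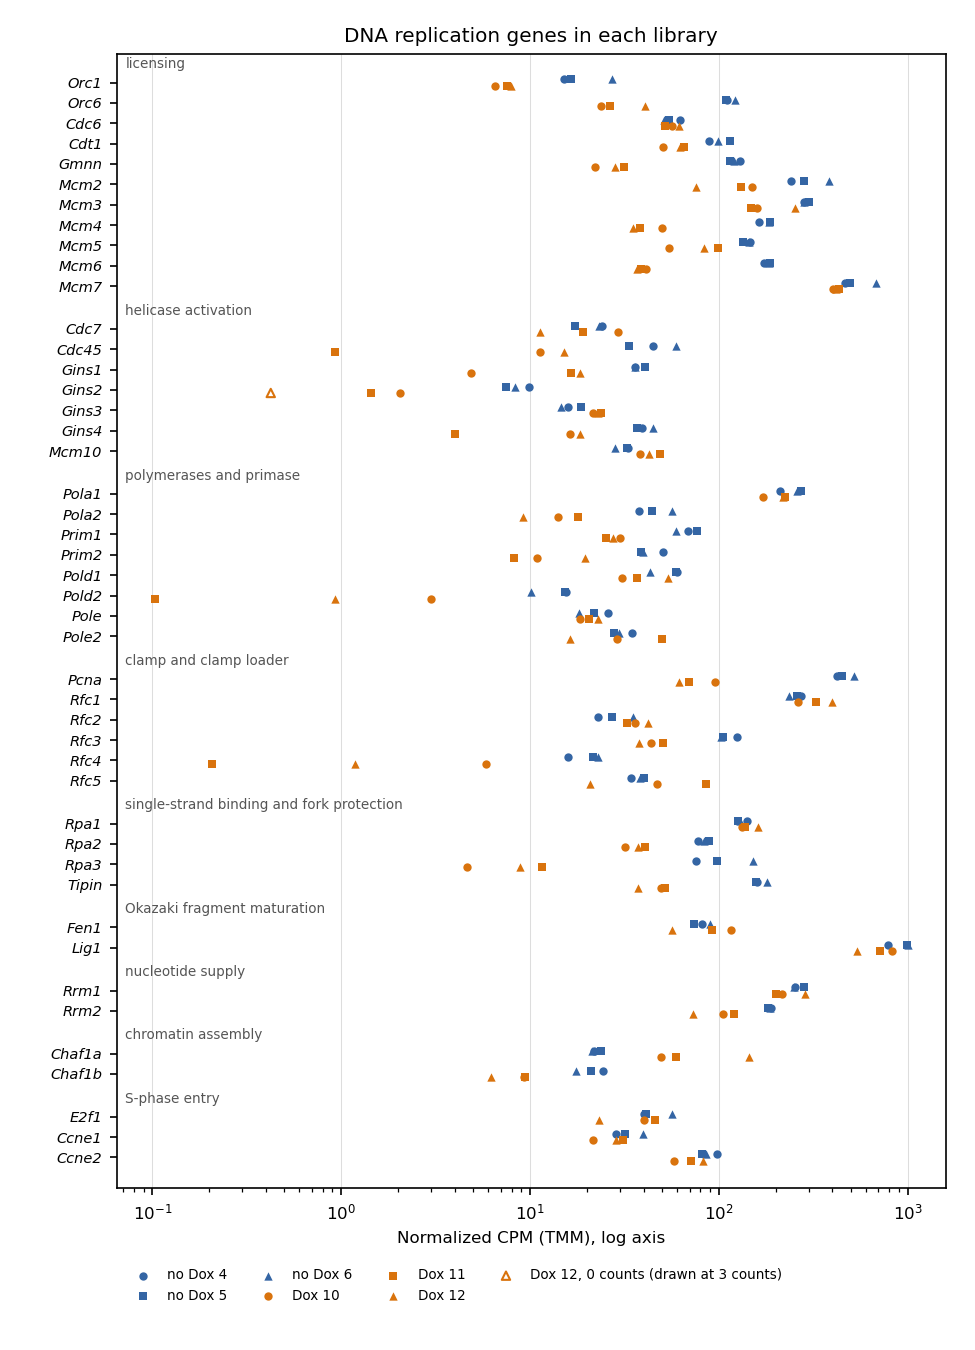
Normalized CPM (log axis) of the 45 members in each of the 6 libraries, by role, in blue without Dox and in orange with Dox. The open triangle is a library with 0 counts, drawn at the level of 3 counts before TMM scaling. Blue and orange points are well apart for Mcm4, Mcm6, Pcna and Rpa3, and mixed for Cdc6, Pole, Fen1 and the cyclins E.

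Of the licensing factors, 9 of 11 fell and 0 rose (0 higher also by an unadjusted p, DESeq2 and limma-voom). Within the Mcm2 to Mcm7 ring, whose subunits assemble in equal numbers, Mcm4 and Mcm6 fell 4.33-fold and 4.64-fold while Mcm7 did not pass the test. Mcm6 (Entrez gene 17219, chr1:128331575-128359705 in GRCm38.p6) was at 173, 186 and 184 CPM without Dox, against 41.4, 38.6 and 37.0 CPM with Dox, so the libraries of each group lay close together and far from the other group. The log2 fold change came to -2.22 (SE 0.16, adjusted p = 6.44e-06). Mcm4 (chr16:15623897-15637400) was at 164, 187 and 185 CPM without Dox, against 50.1, 38.3 and 35.3 CPM with Dox (log2 fold change -2.12, SE 0.19, adjusted p = 2.11e-05). Mcm2, at 240.3, 284 and 382 CPM without Dox, against 150.1, 131 and 75.9 CPM with Dox, fell by 1.35 (log2; SE 0.27, adjusted p = 0.0025), and both groups spread widely. Mcm5 was at 147, 134 and 144 CPM without Dox, against 54.4, 99.5 and 83.8 CPM with Dox, and Mcm3 at 284, 299 and 284 CPM, against 159.8, 149 and 254 CPM. They fell by 0.83 and 0.62 (SE 0.22 and 0.21, adjusted p = 0.012 and 0.035). Both calls depended on the scaling, with adjusted p-values of 0.073 and 0.218 with scaling by library size alone, and that of Mcm3 was also lost with upper-quartile scaling (0.064), with at least 10 counts in every library (0.059) and when any library other than Dox replicate 12 was left out (adjusted p from 0.0553 to 0.0957). Mcm7 was at 467, 493 and 681 CPM without Dox, against 402, 435 and 419.6 CPM with Dox (log2 fold change -0.38, SE 0.17, adjusted p = 0.095); without a low-count filter it passed as lower (-0.52, adjusted p = 0.040). The groups of Mcm7 did not overlap, but the highest library without Dox stood well above the other 2.

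Of the factors that load the ring, Cdc6 had overlapping groups: 62.1, 54.3 and 51.2 CPM without Dox, and 56.6, 52.0 and 61.7 CPM with Dox. Its log2 fold change was 0.02 ± 0.18 (SE), with no fixed sign over the scalings (adjusted p = 0.932). Cdt1, its partner in loading, was at 89.1, 115 and 98.5 CPM without Dox, against 50.6, 65.8 and 62.1 CPM with Dox; it fell by 0.76 (SE 0.19, adjusted p = 0.0084), a call lost with scaling by library size alone (adjusted p = 0.075). Gmnn, the inhibitor of Cdt1, fell with no overlap between groups. It was at 129, 115 and 121 CPM without Dox, against 22.2, 31.5 and 28.1 CPM with Dox (log2 fold change -2.15, SE 0.20, adjusted p = 2.27e-05). The origin recognition subunits Orc1 and Orc6 fell by 1.42 (SE 0.35, adjusted p = 0.0084) and 1.91 (SE 0.23, adjusted p = 0.00013), with no overlap between the groups.

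**Figure D2:**
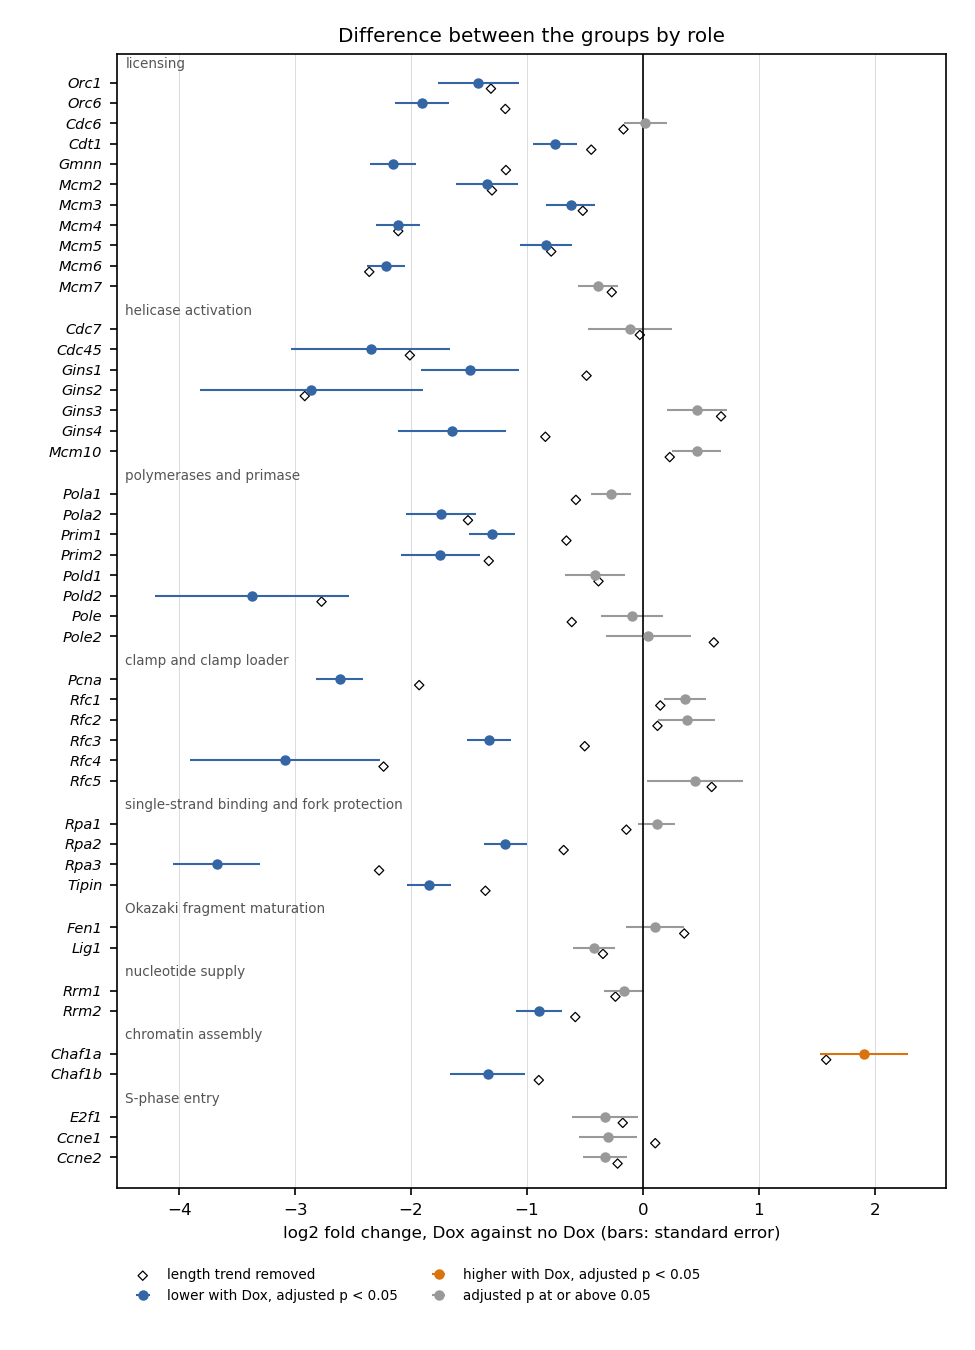
Log2 fold change with Dox against without Dox for the 45 members, by role, with standard errors as bars; open diamonds show the value after a trend with transcript length was removed. Blue points (25 members) fell and the orange point (Chaf1a, 1.91) rose at an adjusted p under 0.05, and within most roles grey points near 0 stand beside blue points below -1.

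Of the 7 genes that activate the helicase, 4 fell and 3 did not pass. In the GINS complex, Gins1, Gins2 and Gins4 fell and Gins3 did not pass. Gins2 had the largest fall of this role on the log2 scale but few counts: 66, 37 and 49 counts without Dox and 15, 14 and 0 with Dox, or 9.85, 7.50 and 8.31 CPM against 2.04, 1.44 and 0 CPM. The log2 fold change came to -2.86 (SE 0.96, adjusted p = 0.034), which became 0.080 to 0.126 without any 1 library of the group without Dox, 0.057 by library size only and 0.051 with limma-voom and group weights, and the log2 fold change was -3.51 without Dox replicate 10. Gins3 was at 15.97, 18.6 and 14.6 CPM without Dox, against 21.5, 23.7 and 22.8 CPM with Dox. These groups did not overlap, on the higher side, yet the log2 fold change of 0.47 ± 0.26 (SE) did not pass (adjusted p = 0.174; 0.033 by library size only). Gins1 was at 36.1, 40.7 and 35.9 CPM without Dox, and Gins4 at 39.1, 36.9 and 44.9 CPM. They fell by 1.49 (SE 0.42) and 1.65 (SE 0.47), each with an adjusted p of 0.016. With Dox, Gins1 was lowest in replicate 10 (4.90 CPM against 16.6 and 18.4) and Gins4 lowest in replicate 11 (4.01 CPM against 16.3 and 18.4), so the lowest library was not the same for both subunits. The call of Gins4 was lost without replicate 6 of the group without Dox (adjusted p = 0.054).

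Cdc45, the remaining helicase partner, was at 44.8, 33.6 and 59.7 CPM without Dox, against 11.3, 0.926 and 15.2 CPM with Dox, so replicate 11 stood apart with 9 counts. It fell by 2.35 (SE 0.69, adjusted p = 0.019), and the adjusted p was 0.072 without replicate 6 of the group without Dox; without Dox replicate 12 the fall was 1.55 times larger, at a log2 fold change of -2.98. Mcm10, which acts beside Cdc45 at the fork, was at 33.0, 32.8 and 28.3 CPM without Dox, against 38.1, 48.9 and 42.8 CPM with Dox. The groups did not overlap, on the higher side, and the log2 fold change of 0.46 ± 0.21 (SE) did not pass (adjusted p = 0.101). Mcm10 passed as higher under 3 of the alternatives: scaling by library size alone (adjusted p = 0.012), at least 10 counts in every library (0.045) and counts divided by the variance-to-mean ratio (0.025). Cdc7, the kinase that fires origins, was at 24.2, 17.2 and 23.2 CPM without Dox, against 29.4, 19.1 and 11.3 CPM with Dox, with an adjusted p of 0.82 and a sign that turned with scaling by library size alone.

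Of the 8 polymerase and primase genes, Pola2, Prim1, Prim2 and Pold2 fell and the other 4 did not pass. The catalytic subunits of polymerases alpha, delta and epsilon, Pola1, Pold1 and Pole, had log2 fold changes of -0.27 ± 0.17, -0.41 ± 0.26 and -0.09 ± 0.27 (SE), with adjusted p-values of 0.228, 0.216 and 0.805. Pola1 was at 211, 272 and 261 CPM without Dox, against 172, 225 and 218 CPM with Dox, and its sign turned with scaling by library size only (0.03). Pold1 was at 59.8, 59.4 and 43.2 CPM without Dox, against 30.9, 36.8 and 54.2 CPM with Dox; it passed only when Dox replicate 12 was left out (-0.69, adjusted p = 0.025). Pole was at 25.97, 21.9 and 18.1 CPM without Dox, against 18.5, 20.6 and 22.9 CPM with Dox. Groups of these 3 genes overlapped.

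Among those that fell, Pold2, an accessory subunit of polymerase delta, was at 15.5, 15.4 and 10.2 CPM without Dox, against 2.99, 0.103 and 0.922 CPM with Dox, from 60 to 104 counts against 22, 1 and 7. On the log2 scale it fell by 3.37 (SE 0.84, adjusted p = 0.0085), and by 4.80 without Dox replicate 10. Pola2, which holds the alpha subunit to primase, fell by 1.74 (SE 0.30, adjusted p = 0.0011), and the primase subunits Prim1 and Prim2 fell by 1.30 (SE 0.20, adjusted p = 0.00055) and 1.75 (SE 0.34, adjusted p = 0.0022). Prim1, with the smallest of these falls, was at 68.8, 76.6 and 59.5 CPM without Dox, against 30.1, 25.3 and 27.7 CPM with Dox. The groups did not overlap for any of these 4 genes. Pole2, the partner of Pole, did not pass: it was at 34.8, 28.0 and 29.7 CPM without Dox, against 28.9, 50.2 and 16.2 CPM with Dox, a spread that covered the group without Dox on both sides (log2 fold change 0.05 ± 0.37 (SE), adjusted p = 0.928, with a sign that turned without a low-count filter).

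Pcna, the sliding clamp, fell, and its groups lay far apart. It (Entrez gene 18538, chr2:132249286-132253180) was at 421, 448 and 520.4 CPM without Dox, against 95.8, 69.8 and 61.4 CPM with Dox, a log2 fold change of -2.61 ± 0.20 (SE), or 6.12-fold lower, with an adjusted p of 8.96e-06. Of its loader, replication factor C, Rfc3 and Rfc4 fell. Rfc3 was at 125, 106 and 102 CPM without Dox, against 44.0, 50.6 and 37.7 CPM with Dox and fell by 1.33 (SE 0.19, adjusted p = 0.00036). Rfc4 was at 15.97, 21.7 and 23.1 CPM without Dox, against 5.85, 0.206 and 1.19 CPM with Dox, from 43, 2 and 9 counts. It fell by 3.09 (SE 0.82, adjusted p = 0.012), and by 4.92 without Dox replicate 10.

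The other 3 loader subunits did not pass and had positive log2 fold changes. Rfc1, the large subunit, was at 272, 259 and 236 CPM without Dox, against 262, 327 and 399 CPM with Dox (log2 fold change 0.36 ± 0.18 (SE), adjusted p = 0.127). Rfc2 was at 23.0, 27.2 and 35.1 CPM without Dox, against 36.2, 32.5 and 42.0 CPM with Dox (0.38 ± 0.25 (SE), adjusted p = 0.237). With scaling by library size alone, Rfc1 and Rfc2 passed on the higher side (adjusted p = 0.0083 and 0.049), and Rfc1 did so too with at least 10 counts in every library (0.042) and with counts divided by the variance-to-mean ratio (0.023). Rfc5 was at 34.2, 40.3 and 38.5 CPM without Dox, against 47.4, 85.9 and 20.7 CPM with Dox, and the Dox libraries decided its sign: the log2 fold change of 0.45 ± 0.41 (SE) became -0.17 without replicate 11 and 0.81 without replicate 12 (adjusted p = 0.024).

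Replication protein A, which coats single-stranded DNA, has 3 subunits, of which Rpa2 and Rpa3 fell. Rpa3, the small subunit (Entrez gene 68240, chr6:8255936-8259141), was at 75.5, 97.5 and 151 CPM without Dox, against 4.63, 11.6 and 8.83 CPM with Dox, a log2 fold change of -3.68 ± 0.38 (SE), or 12.8-fold lower, with an adjusted p of 4.54e-05. Rpa2 was at 78.0, 88.4 and 83.7 CPM without Dox, against 31.8, 40.8 and 37.2 CPM with Dox, and fell by 1.19 (SE 0.19, adjusted p = 0.00061). Rpa1, the large subunit, was at 141, 126 and 129 CPM without Dox, against 133, 137 and 161 CPM with Dox, with a log2 fold change of 0.12 (SE 0.16, adjusted p = 0.566) that turned to -0.02 without a low-count filter and passed as higher by library size only (adjusted p = 0.042). Tipin, which protects stalled forks, was at 160.0, 158 and 181 CPM without Dox, against 49.7, 51.8 and 37.3 CPM with Dox and fell by 1.85 (SE 0.19, adjusted p = 4.4e-05).

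Neither enzyme of Okazaki fragment maturation passed (0 of 2; 1 lower at an unadjusted p under 0.05, 1 with DESeq2 and 0 with limma-voom). The flap nuclease Fen1 was at 81.3, 74.4 and 90.0 CPM without Dox, against 116, 92.3 and 56.5 CPM with Dox (log2 fold change 0.11 ± 0.25 (SE), adjusted p = 0.756), with a sign that turned without a low-count filter. The ligase Lig1 was at 790.0, 994 and 1006 CPM without Dox, against 826, 713 and 542 CPM with Dox (-0.42 ± 0.18 (SE), adjusted p = 0.084), and its groups overlapped through Dox replicate 10, without which it passed (-0.59, adjusted p = 0.036). Lig1 was also called lower with DESeq2 (adjusted p = 0.048), with limma-voom and group quality weights (0.039) and without a low-count filter (0.020). For ribonucleotide reductase, which makes the deoxynucleotides, the regulated subunit Rrm2 fell and the large subunit Rrm1 did not pass. Rrm2 was at 189.8, 181 and 187 CPM without Dox, against 105, 121 and 73.4 CPM with Dox (-0.90 ± 0.20 (SE), adjusted p = 0.0048). Rrm1 was at 252, 284 and 249.7 CPM without Dox, against 217, 200.4 and 285 CPM with Dox (-0.16 ± 0.17 (SE), adjusted p = 0.48), and its sign turned by library size only; it passed without Dox replicate 12 (adjusted p = 0.046).

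The subunits of chromatin assembly factor 1, which places histones behind the fork, went opposite ways. Chaf1a (Entrez gene 27221, chr17:56040416-56068026) was the only member that rose: it was at 21.9, 23.9 and 21.4 CPM without Dox, against 49.5, 59.1 and 144 CPM with Dox (log2 fold change 1.91, SE 0.38, adjusted p = 0.0025). Dox replicate 12 stood far above the other 2, and without it the log2 fold change was 1.26 (adjusted p = 0.00071). Chaf1b was at 24.5, 21.1 and 17.6 CPM without Dox, against 9.25, 9.47 and 6.19 CPM with Dox and fell by 1.34 (SE 0.33, adjusted p = 0.0075). Of the regulators of S-phase entry, 0 of 3 passed with edgeR, as with an unadjusted p under 0.05, DESeq2 and limma-voom. E2f1 was at 40.0, 41.1 and 56.5 CPM without Dox, against 40.4, 46.0 and 23.2 CPM with Dox (-0.33 ± 0.28 (SE), adjusted p = 0.379). The cyclins that drive entry, Ccne1 and Ccne2, had log2 fold changes of -0.30 ± 0.25 and -0.33 ± 0.19 (SE), with adjusted p-values of 0.362 and 0.194. Ccne1 was at 28.5, 32.0 and 39.7 CPM without Dox, against 21.6, 31.1 and 28.7 CPM with Dox, and Ccne2 at 98.2, 81.3 and 85.1 CPM without Dox, against 57.8, 71.0 and 82.1 CPM with Dox, so that groups overlapped for all 3 regulators. Ccne2 passed without Dox replicate 12 (adjusted p = 0.046), and the sign of Ccne1 turned by library size only.

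To compare partners without any scaling between libraries, log2 ratios of their counts were taken within each library for 10 pairs, with 0.5 counts added. Such ratios still carry any relation of fold change to transcript length, and partners can differ in length (Gmnn 1127 bases, Cdt1 2189). With the length trend removed, log2 fold changes went from -0.76 to -0.44 for Cdt1 and from -2.15 to -1.18 for Gmnn. They went from -3.68 to -2.28 for Rpa3 and from 0.12 to -0.14 for Rpa1. With 3 against 3 libraries the exact two-sided permutation test cannot go below p = 0.1, so no ratio could pass, and the 6 pairs whose groups did not overlap each had p = 0.1 (0.167 adjusted over the 10). The ratio of Cdt1 to its inhibitor Gmnn was -0.53, 0.0025 and -0.30 without Dox, against 1.19, 1.06 and 1.14 with Dox, and every Dox library lay above every other by more than the spread within either group. Chaf1b to Chaf1a was 0.16, -0.18 and -0.28 without Dox, against -2.41, -2.63 and -4.52 with Dox. The difference of group means, with Dox minus without, was -1.502 for Pola2 to Pola1, -0.75 for Rrm2 to Rrm1, 3.48 for Mcm10 to Cdc45 and 0.49 for Fen1 to Lig1. That of Mcm10 to Cdc45 moved with single libraries and was 4.09, 2.14 and 4.21 without Dox replicates 10, 11 and 12 in turn. That of Chaf1b to Chaf1a went from -3.09 to -2.42 without Dox replicate 12. The ratio of Ccne1 to Ccne2 differed by 0.03 between group means, against SDs of 0.35 and 0.17 (n = 3 each; exact permutation p = 1), and Pole2 to Pole, Prim1 to Prim2 and Gins1 to Gins4 also overlapped. A further 5 ratios were chosen after the values were seen and are given without a test: the difference was -1.85 for Mcm6 to Mcm7 and -3.84 for Rpa3 to Rpa1. For Pold2 to Pold1, Rfc4 to Rfc1 and Gins2 to Gins3 all Dox libraries were below all others, but Dox replicate 11 had 1 count of Pold2 and 2 of Rfc4, and Dox replicate 12 had 0 of Gins2, so the sizes of these differences are not given.

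**Figure D3:**
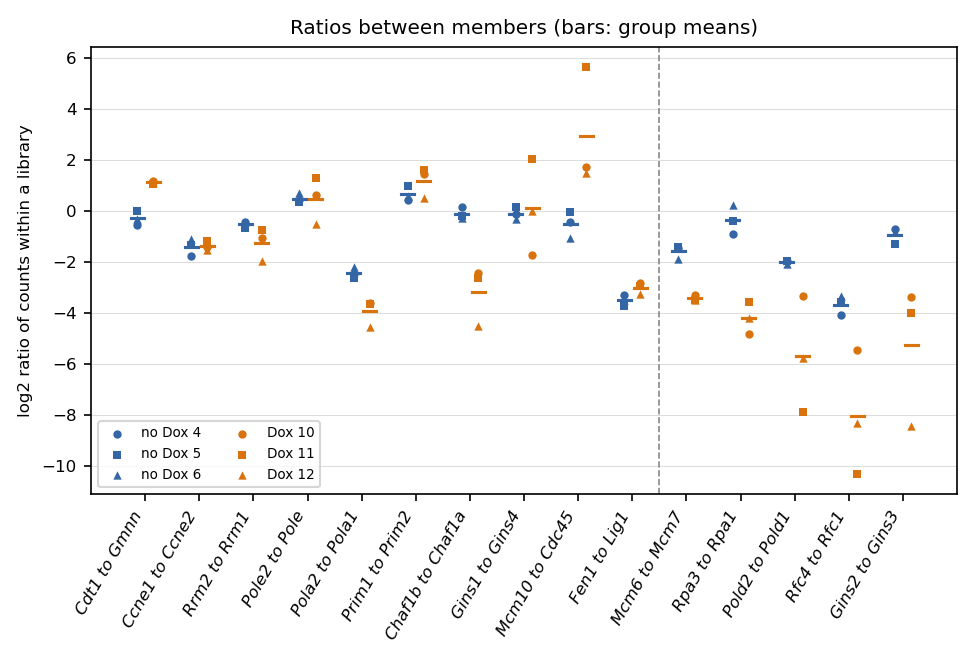
Log2 ratio of the counts of 2 members within a library (y axis) for the 10 tested pairs (left of the dashed line) and 5 pairs chosen after the values were seen (right); points are libraries and bars group means. Cdt1 to Gmnn moves from below 0 to above 1 with little spread, while Gins1 to Gins4 and Mcm10 to Cdc45 spread widely among Dox libraries; the lowest point of Gins2 to Gins3 stands for 0 counts of Gins2.

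The members' fold changes ran with transcript length. Short transcripts had the larger falls: of the 15 members whose longest annotated transcript was 670 to 1975 bases, 14 fell, and their median log2 fold change was -1.75. Of the 15 members of 2000 to 3174 bases, 6 fell (median -0.38), and of the 15 of 3371 to 7163 bases, 5 fell and 1 rose (median -0.16). Short genes as a whole were also lower: of all tested genes with a length, 42.9% fell in the shortest 5th by length (62 to 1791 bases, median -0.85) and 11.6% in the longest (5215 to 123179 bases, median 0.56). Across the 45 members Spearman's rank correlation between log2 fold change and transcript length was 0.58, and across the 11992 tested genes with a length it was 0.30; genes of one set of libraries share those libraries and are not independent, and no p is given. Against the mean of the libraries without Dox, the rank correlation over the members was 0.59, 0.56 and 0.62 in the 3 Dox libraries. It was -0.16 to 0.11 in the others, which are themselves part of that mean and so are no independent comparison. The relation was thus seen in each Dox library, against 1 shared reference. The 3′ end method used here is designed to make 1 fragment per transcript. Where the relation with length came from was not tested. Within Mcm2 to Mcm7, with transcripts of 2962 to 4355 bases, the order was another: Mcm6, the longest, had the largest fall and Mcm7, the shortest, did not pass.

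**Figure D4:**
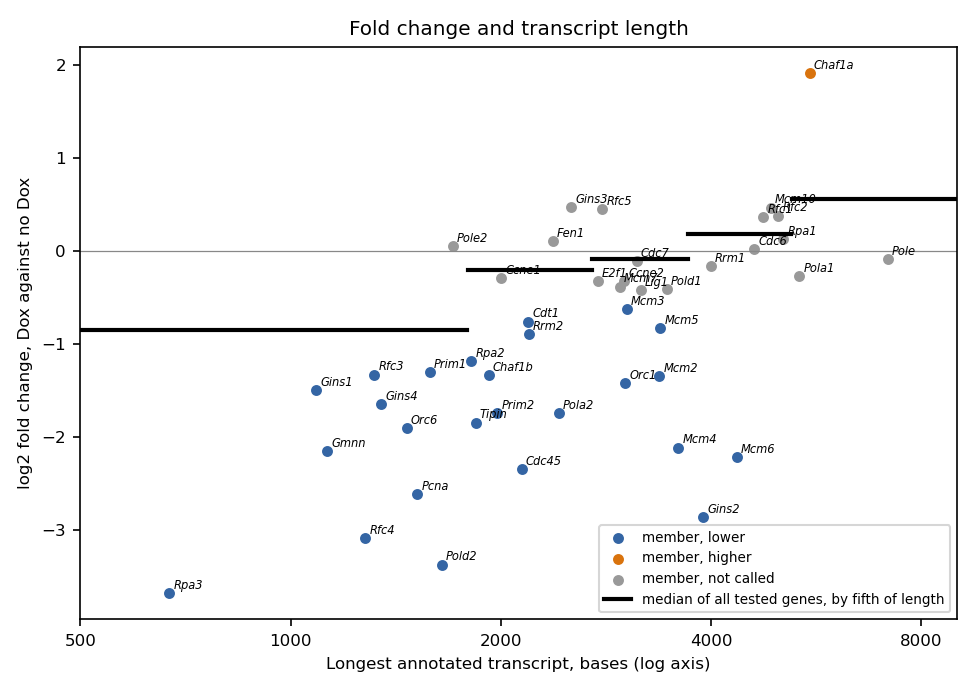
Log2 fold change (y axis) against the longest annotated transcript in bases (log axis) for the 45 members, coloured by call; black lines are medians of all tested genes in 5 equal bins by length, and the first and last lines are cut at the axis ends. Members left of 2000 bases lie below -1, apart from Pole2, while the 8 members to the right of Mcm6 lie near 0 apart from Chaf1a.

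With the trend of all genes with length removed, a setting chosen after the data were seen, 21 members were lower and 1 higher, where 20.4% of 11992 genes were lower and 22.7% higher. Cdt1, Mcm3, Gins1, Gins4 and Rfc3 no longer passed, with adjusted p-values of 0.080, 0.069, 0.375, 0.165 and 0.051. Among them Mcm3 moved little (log2 fold change from -0.62 to -0.52). Cdt1 went from -0.76 to -0.44, Gins1 from -1.49 to -0.49, Gins4 from -1.65 to -0.84 and Rfc3 from -1.33 to -0.50. Pola1 passed as lower (-0.58, adjusted p = 0.021). The fold moved by over 1.5 times for 10 of the 26 called members, among them Rpa3 (from -3.68 to -2.28), Gmnn (from -2.15 to -1.18) and Pcna (from -2.61 to -1.93), which still passed. The rank correlation with length was then 0.36 over the members and -0.02 over all genes. Several members overlap a neighbouring gene with counts of its own, given here over the 6 libraries. Among those with few counts with Dox were Cdc45 with Ufd1 and Gm52240 (1928 counts, against 1025 of Cdc45) and Gins2 with Gse1 (940 against 181). Pold2 overlaps Aebp1 (269 against 270) and Rfc4 overlaps Eif4a2 (1604 against 404). Among the others were Chaf1a with Ubxn6 (659 against 2422) and Fen1 with Tmem258 (2424 against 3619). So were Orc1 with Prpf38a and Gm12743 (1361 against 524) and Ccne2 with Ints8 and A630034I12Rik (1347 against 3299). Reads of such pairs may not be told apart: whether counting used the strand is not given in the sources used here.

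Other genes of replication, taken from a list of 49, were also mostly lower where they passed: of 46 tested, 23 fell and 8 rose, with a median log2 fold change of -0.92. These are 50% and 17.4% of the list, where 22.1% and 23.6% of all tested genes fell and rose. Of those that passed, the 4 with the largest fall were Dscc1, a subunit of an alternative clamp loader, Asf1a, a histone chaperone, Rnaseh2c, a subunit of the nuclease that removes ribonucleotides from DNA, and Dut, which keeps uracil out of DNA. Their log2 fold changes were -3.23, -3.18, -2.64 and -2.30 (SE 0.67, 0.66, 0.38 and 0.14), with adjusted p-values from 2.82e-06 for Dut to 0.0032 for Asf1a. With the length trend removed all 4 still fell, with log2 fold changes of -2.53, -2.87, -1.66 and -1.87, and Dscc1 and Asf1a rest on 4 to 30 counts per Dox library. Without Dox replicate 10, where it had 30 counts, the log2 fold change of Dscc1 was -4.39. Dut was at 666, 700.0 and 673 CPM without Dox, against 140.4, 140.4 and 134 CPM with Dox, so both groups were narrow and far apart. Those that rose were the fork factors Topbp1 (0.54), Wdhd1 (0.86) and Timeless (0.69), the polymerase delta subunit Pold3 (0.78), the E2F genes E2f2 (0.51), E2f7 (1.35) and E2f8 (0.96), and the deubiquitinase Usp37 (0.84), with adjusted p-values of 0.0011 to 0.042. Of these 8, only Wdhd1, Pold3 and E2f8 still rose with the length trend removed, and E2f7 overlapped between groups. With 1 library left out at a time, Wdhd1 and E2f8 passed throughout. The other 6 lost their calls (adjusted p from 0.057 to 0.234): Pold3 and Usp37 without replicate 5 or 6 of the group without Dox, Topbp1 without any 1 library of that group, Timeless without any 1 of these or Dox replicate 12, E2f2 without any 1 library other than Dox replicate 12, and E2f7 without replicate 4, 6, 10 or 11. Timeless, at 56.6, 57.4 and 53.4 CPM without Dox, against 76.2, 70.9 and 123 CPM with Dox, is the binding partner of Tipin, which fell.

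Genes of mitosis, which comes later in the cycle, numbered 24 tested of 25. Of these, 10 (41.7%) fell and 0 rose, where 22.1% and 23.6% of all tested genes did so. The median log2 fold change of the 24 was -0.52, and 2 were higher at an unadjusted p under 0.05, 0 with DESeq2 and 0 with limma-voom. The 2 with the largest fall were the kinase Aurkb (-2.43 ± 0.40 (SE), adjusted p = 0.00087) and the cyclin Ccnb1 (-1.93 ± 0.20 (SE), adjusted p = 4.93e-05). The general proliferation marker Mki67, named after its value was seen, had 895 ± 71.9 CPM without Dox, against 954 ± 221 CPM (SD, n = 3 each; adjusted p = 0.698), and its sign turned without a low-count filter and without replicate 6 or 12; it passed as lower with the length trend removed (adjusted p = 0.0092). Whether the members fell more than the mitosis genes was not tested.

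Markers of T cells, B cells, myeloid and erythroid cells moved with the groups, and their part in the members' differences was not tested. Of 15 T cell markers, 12 fell and 1 rose, and their sum went from 3727 to 3984 CPM without Dox to 352 to 437 CPM with Dox; Cd3d, a chain of the T cell receptor complex, was at 473 ± 3.75 and 16.1 ± 1.71 CPM (SD, n = 3 each). All 12 B cell markers rose, from a sum of 52.1 to 55.1 CPM to 2152 to 2383 CPM, and Blk, Cr2 and Fcer2a had means of 0.249, 0.803 and 1.51 CPM without Dox. Myeloid markers, with 7 of 11 tested higher and 2 lower, summed to 289 to 358 CPM without Dox, against 2129 to 2163 CPM with Dox, and the neutrophil gene Ly6g was at 0 counts without Dox. Erythroid markers, whose cells also cycle in spleen, summed to 1654 to 1979 CPM without Dox, against 2431 to 2467 CPM with Dox (6 of 11 tested higher, 1 lower), and stromal markers to 386 to 420.4 and 360.0 to 527 CPM; 2 of 8 were higher and 2 lower, or 25% each, near the 23.6% and 22.1% of all tested genes. The labels call the cells leukaemia cells without naming a lineage. Without Dox the B cell marker with the highest mean was Pax5, at 12.7, 15.6 and 16.3 CPM, and the T cell gene Cd7, the 1 that rose, had a mean of 0.124 CPM, against 9.25 CPM with Dox.

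**Figure D5:**
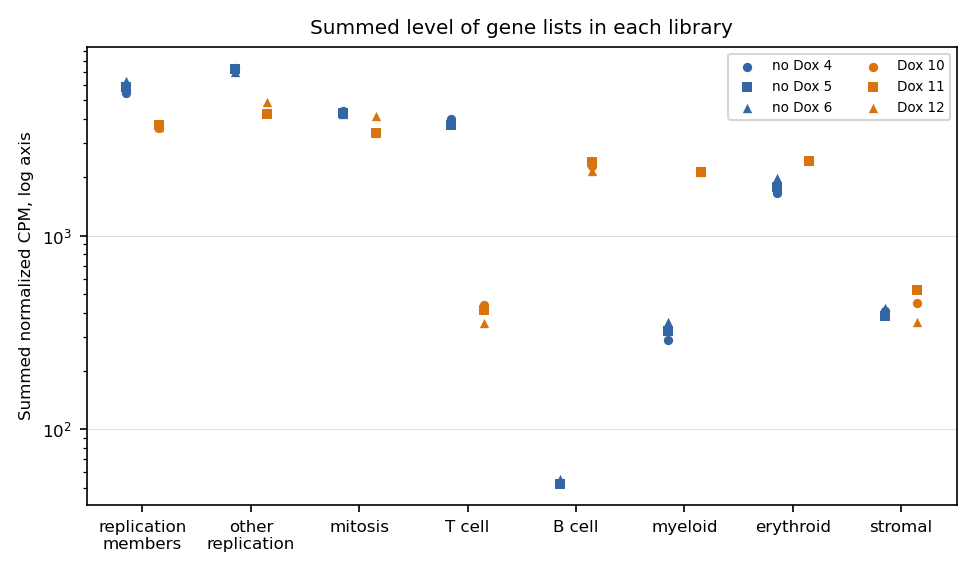
Summed normalized CPM (log axis) of each gene list in the 6 libraries; blue, without Dox; orange, with Dox. The members' sum is lower with Dox (3603 to 3723 against 5461 to 6264), T cell markers are lower, and B cell and myeloid markers are higher, in every Dox library.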

How the data were processed

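Libraries of mRNA 3′ ends were made from polyA RNA with a QuantSeq FWD kit, per the labels' protocols. The authors deposited raw counts per Entrez gene ID, 1 column per library; the submitters' processing notes name STAR, featureCounts and GRCm38, without versions. Strand setting, annotation and the handling of shared reads are not given in the sources used here. Reads carry no stated molecular identifiers, so count floors cover counting error only. Symbols and coordinates came from RefSeq (GRCm38.p6), which matched 39374 of 40808 IDs, and transcript lengths from GENCODE M21. All 6 columns were matched by title, and 0 were left over.

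Genes passing filterByExpr at its defaults (a minimum count of 10 and a minimum total of 15) were scaled with TMM and tested with edgeR 4.0.16 in R 4.3.3 (quasi-likelihood test, no covariate, Benjamini-Hochberg over 14110 genes, threshold 0.05). Normalized CPM are TMM-scaled, and each standard error is the log2 fold change over the square root of its F value. The test was checked on simulated data. Alternatives were RLE, upper-quartile and size-only scaling, other filters, DESeq2 1.42.0, limma-voom (limma 3.58.1), a threshold of 0.01, leaving out blood and antigen-receptor genes, dividing counts by each group's variance-to-mean ratio, leaving out each library, and a loess fit (span 0.5) of fold change on transcript length, entered as an offset. The members, lists and alternatives were chosen with earlier results of these data known.

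By the naming rule any member may be named. Values of every library are given for the members of each role with the largest and smallest fall and for those that did not pass or rose; the other replication genes named are the 4 largest falls and all rises past the threshold, and the mitosis genes the 2 largest falls. Mki67 was named after its value was seen.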

Additional observations from a re-analysis of the deposited data

How the results depend on the processing

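No paired analysis was possible because replicates are numbered 4 to 6 in one group and 10 to 12 in the other. Under 18 alternatives of the fit, of which the removal of the length trend was chosen after seeing the data, 17 of the 26 called members kept their call in every one in which they were tested, and all 25 lower members kept their direction (16 alternatives for Pold2 and Gins2 and 17 for Cdc45 and Rfc4, which the others left untested); of the 19 others, 7 passed in none and 10 changed sign at least once. Where a call or a sign changed, the cause was not tested unless stated. For the members, the number higher (1) became 6 by library size only, 3 with at least 10 counts in every library and 3 with counts divided by the variance-to-mean ratio, and the median log2 fold change (-0.83) became -0.53, -0.50, -0.63 and, with the length trend removed, -0.58. With size-only scaling the median of all tested genes went from 0.07 to 0.38 and the members' mean sum from 5856 to 5247 CPM without Dox and from 3659 to 4045 CPM with Dox. For the other replication genes, the number higher (8) became 3 without a low-count filter, 2 at an adjusted p under 0.01 and 4 with the length trend removed, and the median (-0.92) became -0.61 by library size only, -0.32 with at least 10 counts in every library and -0.56 with the length trend removed. For the mitosis genes, the number higher (0) became 2 with upper-quartile scaling, 3 by library size only, 3 with at least 10 counts in every library, 1 with limma-voom and group weights, 3 with counts divided by the variance-to-mean ratio and 1 with the length trend removed, and the median (-0.52) became -0.43, -0.22, -0.41, -0.58, -0.43 and -0.41 in that order, -0.58 with limma-voom and -0.67 without a low-count filter. Signs turned for members near 0. Cdc6 was -0.0064 with RLE, -0.12 without a low-count filter, -0.0068 with DESeq2 and -0.17 with the length trend removed. By library size only, Cdc7 was 0.21, Pola1 0.032, Pole 0.22, Rrm1 0.15 and Ccne1 0.0060. With at least 10 counts in every library, Cdc7 was 0.0040 and Pole 0.028, and with upper-quartile scaling Pole was 0.0065. Without a low-count filter, Pole2 was -0.098, Rpa1 -0.022 and Fen1 -0.026. Pole2 was -0.065 with limma-voom and -0.063 with group weights, and with the length trend removed Rpa1 was -0.14 and Ccne1 0.11. Mki67 (0.09) was -0.054 without a low-count filter and -0.69 with the length trend removed. With 1 library left out at a time, the number of members lower ran from 21 (without no Dox replicate 6) to 28 (without Dox replicate 12), the number higher from 1 to 2 (2 without Dox replicate 12) and their median from -1.06 (without Dox replicate 11) to -0.68 (without Dox replicate 10). The other replication genes had 2 (without no Dox replicate 6) to 9 higher, and the mitosis genes 0 to 1 higher with a median of -0.64 to -0.51. Over the same fits Cdc6 ran from -0.13 to 0.062, Cdc7 from -0.52 to 0.15, Pole from -0.31 to 0.0022, Pole2 from -0.48 to 0.34, Rfc5 from -0.17 to 0.81, Fen1 from -0.16 to 0.33 and Mki67 from -0.13 to 0.18. Among the log2 ratios, the difference of Ccne1 to Ccne2 ran from -0.15 to 0.19, Pole2 to Pole from -0.42 to 0.47 and Gins1 to Gins4 from -0.76 to 1.11. Few counts limit the precision for Gins2, Pold2, Rfc4 and Cdc45, each with under 10 counts in at least 1 Dox library (for the last 3 in Dox replicate 11, the deepest): with limma-voom each of these 4 fell further by over 1.5 times.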
